A study of Mus musculus with 6 samples.

Results

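Fibronectin, a group of secreted matrix proteases, their inhibitor *Timp3* and the secreted wound-repair genes *Inhba*, *Spp1* and *Mgp* were followed through mouse tracheal epithelial cultures, cell type by cell type and mouse by mouse. The 8 genes were *Fn1*, *Mmp7*, *Mmp12*, *Mmp13*, *Timp3*, *Inhba*, *Spp1* and *Mgp*, out of 20483 genes in the count table, and each had a single entry there. They were chosen by symbol, with their levels in the basal clusters of these cells already known. Their levels by cluster are therefore given as a description with no test, and tests are given only for the comparison of genotypes.

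Matrix metalloproteinases are secreted or membrane-bound enzymes that cut the proteins around cells, and the tissue inhibitors of metalloproteinases bind and block them. In airway epithelium, basal cells are the progenitors that spread over and refill a wound. Spreading cells lay down fibronectin as a provisional matrix, use proteases such as matrilysin to loosen contacts, and respond to ligands of the TGF-beta family, which includes the activins.

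Droplet scRNA-Seq was used to ask whether a mutation in a dynein assembly factor alters the transcriptome of airway cells. Primary tracheal epithelial cells from 3 *WT/WT* and 3 *MIS/MIS* mice on the C57BL/6 background, 12 weeks old, were grown at air-liquid interface. *MIS/MIS* mice are homozygous for a missense mutation of *Dnaaf5*, and UMI counts do not show that substitution. The 3 *WT/WT* libraries are called WT1, WT2 and WT3 and the 3 *MIS/MIS* libraries MT1301, MT1306 and MT1383, each from a separate mouse. The cultures were grown from isolated tracheal cells, so they model the epithelium rather than the whole trachea.

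The table held 23871 cells in 16 clusters named by the authors, with 2673 to 6710 cells per mouse. The median depth was 21327.5 to 35383 unique molecular identifiers (UMIs, counts of transcript molecules) per cell. Levels are given as CPM, the UMIs of a gene as a share of all UMIs of the cells summed, scaled to a fixed total, for mice with at least 20 cells of the cluster. Clusters are placed in order only where at least 2 mice gave a value, which leaves out ionocytes (28 cells) and neuroendocrine cells, where only MT1383 did. CPM are not scaled by transcript length, so levels are compared between cells and not between genes. No doublet caller was run, 655 cells held more genes than the upper limit of 7500 in the authors' stated filter, and 67 barcodes occurred in 2 libraries. Basal1 held 2334 cells, Basal2 2269 and Basal7 510. Basal markers were present in all 3 clusters, and of these Basal7 had the lowest level of each marker but *Krt14*. There *Krt5* averaged 81.8 CPM, against 310.2 in Basal1, 274 in Basal2 and 1202 in Basal4. *Krt14* averaged 804 CPM in Basal7, 291 in Basal2 and 9.24 in secretory cells. *Krt15* went the other way, at 587 CPM in Basal7 and 2112 in secretory cells. *Krt5*, *Trp63*, *Ngfr* and *Dapl1* were at 35.8, 5.18, 2.24 and 24.6 CPM in secretory cells, against 81.8, 16.7, 3.07 and 29.0 in Basal7. These secretory values sum both secretory clusters. Secretory2 alone was above Basal7 in *Krt5* (92.8 CPM), *Ngfr* (4.59), *Dapl1* (53.2) and *Krt15* (3076). It was below Basal7 in *Trp63* (12.1 CPM) and *Krt14* (11.0). In library WT3, 10 Basal1 cells went against their label. Each had at least 10 UMIs of *Col1a1*, *Col1a2* and *Col3a1* together (median 334.5) and their median for basal keratins was 1.5 UMIs, against 151 in its other Basal1 cells. No other library had such cells. They are called collagen-rich below, and levels and fold changes in Basal1 that rest on them are given with and without them.

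3 of the members lie in the metalloproteinase gene cluster of chromosome 9. In the GRCm38 annotation (GENCODE M21) 10 *Mmp* genes fill the 427 kb from the start of *Mmp13* (chr9:7272514-7283331, plus strand) past *Mmp12* (chr9:7344381-7369499, plus strand) to the end of *Mmp7* (chr9:7692090-7699585, plus strand). *Mmp13* and *Mmp12* were used by the same cluster of cells and *Mmp7* by another, so their upstream sequences are shown. Each is the 100 bases before a RefSeq start site on GRCm38.p6, 5′ to 3′ on the plus strand, at chr9:7272414-7272513, chr9:7347274-7347373 and chr9:7691990-7692089. Capitals mark a match to TGANTCA, the AP-1 motif, which reads the same on both strands.
Mmp13: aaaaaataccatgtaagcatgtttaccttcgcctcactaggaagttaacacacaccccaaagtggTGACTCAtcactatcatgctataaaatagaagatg
Mmp12: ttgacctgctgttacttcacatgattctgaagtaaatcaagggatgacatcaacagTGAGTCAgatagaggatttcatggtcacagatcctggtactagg
Mmp7: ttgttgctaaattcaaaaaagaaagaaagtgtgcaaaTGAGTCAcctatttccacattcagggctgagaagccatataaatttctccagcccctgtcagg

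The motif began 35 bases before the start site of *Mmp13*, 44 before the second RefSeq start of *Mmp12* and 63 before the first of *Mmp7*. Of all 32851 RefSeq promoter windows, which cover 250 bases before a start and 50 from it on, 7.81% held the motif. Windows were found for 6 of the 8 members, 9 windows in all, and 3 members had a match. The windows of *Timp3*, *Inhba* and *Spp1*, the first of *Mmp12* and the second of *Mmp7* had none. These matches describe letters only, and *Mmp7* carried one although its cells were not those of *Mmp12* and *Mmp13*.

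The other members lie apart. *Fn1* is on the minus strand of chromosome 1 (chr1:71585520-71653200), *Spp1* on the plus strand of chromosome 5 (chr5:104435118-104441050), *Mgp* on the minus strand of chromosome 6 (chr6:136872435-136875823) and *Inhba* on the plus strand of chromosome 13 (chr13:16011851-16031621). *Timp3*, at chr10:86300372-86349506 on the plus strand, lies within *Syn3* on the opposite strand.

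The members fell into 3 patterns. *Fn1*, *Mmp12*, *Mmp13*, *Inhba* and *Spp1* were concentrated in Basal1, which held 9.78% of all cells but between 88.9% (*Inhba*) and 98.9% (*Mmp12*) of their UMIs. *Mmp7* was concentrated in Basal7, with 95.9% of its UMIs in 2.14% of the cells. Most of these UMIs came from WT2 and MT1301. *Timp3* was spread over basal and secretory clusters, with 61.1% of its UMIs in basal and 35.7% in secretory cells. *Mgp* had 92.1% of its UMIs in Basal1, but most of these were in the collagen-rich cells of WT3.

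**Figure D1:**
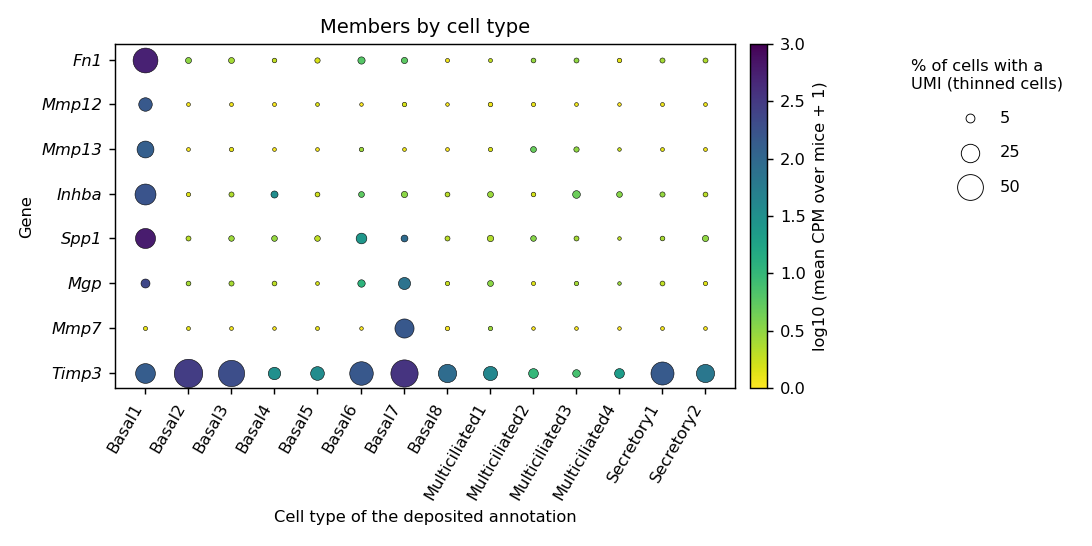
The 8 genes (vertical axis) in the clusters named by the authors (horizontal axis), where colour is log10(mean CPM + 1) over mice with at least 20 cells and dot size is the share of thinned cells with a UMI. *Fn1*, *Mmp12*, *Mmp13*, *Inhba* and *Spp1* peak in Basal1, *Mmp7* peaks in Basal7, and *Timp3* extends over basal and secretory clusters.

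Among the proteases, *Mmp12* encodes macrophage elastase, named after the cells in which it was first described. In Basal1 it stood at 154, 45.8 and 327 CPM in WT1, WT2 and WT3 and at 128, 74.1 and 167 CPM in MT1301, MT1306 and MT1383 (149 ± 98.9, mean and SD of 6 mice of both genotypes). Among the clusters placed in order Basal7 came next at 0.572 CPM, its range below that of Basal1, and the neuroendocrine cells of MT1383 had 0.892 CPM, which is 1 UMI. Basal1 had the highest level of *Mmp12* in 6 of 6 mice.

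The *Mmp12* molecules came from few cells. A UMI was found in 17.4% of Basal1 cells on average, and in 13.0% after every cell was thinned to 10000 UMIs, a step that left out 181 *WT/WT* and 356 *MIS/MIS* cells. In Multiciliated3, which should lack the gene, the shares were 0.432% and 0.103%, at a median of 26359.5 UMIs per cell against 28982 in Basal1. As few as 4 to 10 cells per mouse held 50% of the Basal1 UMIs, and the highest cell had 479 UMIs. Of 10 macrophage and leukocyte markers, *Adgre1*, *Marco*, *C1qa*, *C1qb* and *Tyrobp* had no entry in the table and *Ptprc*, which marks all leukocytes, had 22 UMIs in the whole series. The summed list was 27.7 to 175 CPM in Basal1 and came mainly from *Lyz2* and *Cd68*, which were higher in secretory cells, at 1441 and 31.4 CPM. *Csf1r* and *Itgam* were low but higher in Basal1 (0.763 and 0.396 CPM) than in secretory cells (0.535 and 0.0975 CPM). Levels over a whole cluster do not show what the few cells rich in *Mmp12* held, and a leukocyte source was not tested.

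*Mmp13*, a collagenase, measured 404, 97.9 and 60.3 CPM in Basal1 of WT1, WT2 and WT3 and 80.9, 27.4 and 92.8 CPM in MT1301, MT1306 and MT1383 (127 ± 138, n = 6). WT1 stood above the other 5 mice, which overlapped between genotypes. The next cluster was Multiciliated2 at 3.96 CPM, and its highest mouse (8.89 CPM) was below the lowest mouse of Basal1. A UMI was found in 29.0% of Basal1 cells and in 20.8% after thinning. The shares were 6.29% and 1.64% in Multiciliated2 and 2.68% and 1.18% in Multiciliated3.

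*Mmp7* encodes matrilysin, which lacks the domain by which other metalloproteinases bind their substrates. In Basal7 it was at 3.76, 352 and 66.2 CPM in WT1, WT2 and WT3 and at 284 and 64.5 CPM in MT1301 and MT1306 (154 ± 153, n = 5). MT1383 had only 12 Basal7 cells and was left out. WT1 was far below the other mice, and the values of both genotypes overlapped. Even so, Basal7 led all clusters in each of these 5 mice, and Basal1 did not exceed 0.75 CPM. A UMI was found in 38.1% of Basal7 cells (SD between mice 23.8) and in 27.1% after thinning (SD 20.6), against 0.191% and 0.0440% in Multiciliated3. Of the 3321 *Mmp7* UMIs of Basal7, WT2 held 1266 and MT1301 1814, while WT1 held 8. In WT3, 1 cell had 63 of the 122 UMIs.

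WT1 stood apart from the other mice within Basal7 in further genes. Its Basal7 cells had *Krt14* at 203 CPM where the other 4 mice had 734 to 1545, *Timp3* at 117 CPM where the others had 324 to 508, and *Trp63*, the basal transcription factor, at 3.29 CPM where the others had 9.22 to 25.5. They had *Cd74*, a chain that accompanies MHC class II, at 452 CPM against 21.7 to 360.4, and *Spink8* at 452 CPM against at most 0.652. In *Krt15* (757 against 239 to 1200 CPM) WT1 lay within the range of the others. Its *Krt5*, at 29.6 CPM, was close to the 31.0 CPM of MT1301. The macrophage and leukocyte list, in which *Lyz2* had the highest level, summed to 11517 CPM in Basal7 of WT1 and to 21.2 to 1983 CPM in the same 4 mice. The part of these differences in the low *Mmp7* of WT1 was not tested.

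*Timp3*, the tissue inhibitor of metalloproteinases that stays bound to the matrix, followed another order. Its mean was highest in Basal7 (352 ± 147 CPM, n = 5) and Basal2 (294 ± 61.1, n = 6), which overlapped, followed by Basal3 at 192, Basal6 at 153, Secretory1 at 144, Basal1 at 132 and Basal8 at 88.1 CPM. From Basal3 to Basal8, no neighbours in this order differed by more than the larger SD between mice. Secretory2 followed at 63.3 CPM, and Multiciliated3 was lowest at 6.76 CPM. Basal7 was the highest cluster in WT2, WT3 and MT1301, and Basal2 in WT1, MT1306 and MT1383. A UMI was found in 64.5% of Basal7 cells, in 54.3% of Secretory1 cells and in 6.83% of Multiciliated3 cells (56.0%, 39.8% and 3.51% after thinning).

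In Basal7, *Timp3* was at 117, 389 and 508 CPM in the *WT/WT* mice and at 421 and 324 CPM in MT1301 and MT1306. Cells with *Mmp7* also tended to hold its inhibitor. Of 506 Basal7 cells thinned to 10000 UMIs, *Timp3* was detected in 76.2% of the 189 cells with *Mmp7* and in 54.3% of the others, and the share was higher with *Mmp7* in 2 of 2 mice with enough cells of both kinds. *Mgp* was detected in 17.5% and 7.89% of the same cells. Split the other way, *Mmp7* was detected in 45.6% of cells with *Timp3* and in 23.7% of the others. That share was higher with *Timp3* in 4 of 5 mice. The percentages pool cells of mice that differ in both genes, and the members were picked for their levels, so these shares are a description.

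**Figure D2:**
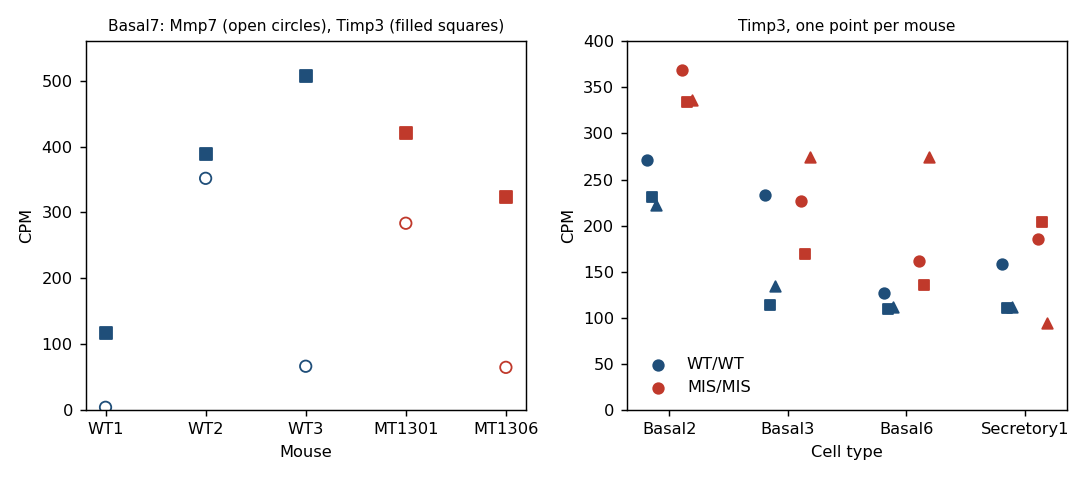
Left, CPM of *Mmp7* (open circles) and *Timp3* (filled squares) in Basal7 cells of 5 mice, where WT1 is lowest for both with 3.76 and 117 CPM. Right, CPM of *Timp3* in 4 further clusters with a point per mouse coloured by genotype, where every *MIS/MIS* mouse is above every *WT/WT* mouse in Basal2 (334 to 369 against 222 to 271 CPM).

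*Fn1* encodes fibronectin, the matrix glycoprotein that integrins bind. It was at 628, 139.9 and 672 CPM in Basal1 of WT1, WT2 and WT3 and at 601, 656 and 461 CPM in MT1301, MT1306 and MT1383 (526 ± 204, n = 6). WT2 was lowest and the other 5 mice lay close together. Basal6 came next at 5.25 CPM, with 5.35 CPM in the neuroendocrine cells of MT1383, and none of the neighbours that follow it in the order differed beyond their spread. A UMI was found in 54.7% of Basal1 cells and in 46.3% after thinning, against 2.40% and 0.932% in Multiciliated3. Without the collagen-rich cells, WT3 fell from 672 to 548 CPM.

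*Spp1* encodes osteopontin, a secreted ligand of integrins and CD44. In Basal1 it was at 358, 511 and 1240 CPM in WT1, WT2 and WT3 and at 644, 431 and 402 CPM in MT1301, MT1306 and MT1383 (598 ± 330, n = 6). The high value of WT3 rested on its collagen-rich cells, which held 79.8% of its *Spp1* UMIs and one of which alone had 3518. Without them WT3 had 259 CPM, the lowest of the 6 mice. Basal7 was next at 91.3 ± 187 CPM (n = 5), but 67.3% of the UMIs behind the 425 CPM of WT1 came from a single cell, and without WT1 the mean was 7.98 CPM. Basal6 had 24.9 CPM, and the neuroendocrine cells of MT1383 had 80.3 CPM, all of it in 2 of 108 cells. A UMI was found in 37.4% of Basal1 cells and in 29.7% after thinning, against 2.62% and 0.915% in Multiciliated3.

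*Mgp* encodes matrix Gla protein, an inhibitor of calcification that fibroblasts and chondrocytes also make. In Basal1 it was at 4.94, 15.7 and 1283 CPM in WT1, WT2 and WT3 and at 15.4, 28.3 and 35.5 CPM in MT1301, MT1306 and MT1383. The collagen-rich cells held 96.6% of the *Mgp* UMIs of WT3, up to 5874 in a cell, and without them WT3 had 45.4 CPM. The mean over 6 mice was 231 ± 516 CPM with these cells and 24.2 ± 14.9 without them. Basal7 then had the highest mean, at 71.1 ± 74.8 CPM (n = 5). Its mice had 201, 52.2 and 9.22 CPM (WT1, WT2, WT3) and 56.9 and 36.5 CPM (MT1301, MT1306), and without WT1 the mean was 38.7 ± 21.5 CPM. With the collagen-rich cells kept, Basal7 was the highest cluster in 4 mice. A UMI was found in 9.10% of Basal1 and 14.8% of Basal7 cells (5.19% and 10.3% after thinning). In WT3 a UMI was also found in 7.69% of secretory and 8.89% of multiciliated cells. The other mice had 0.341% to 1.87% and 0.768% to 2.14%. The source of these UMIs was not tested.

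Besides the 3 collagens by which they were chosen, the collagen-rich cells held 113 of 113 UMIs of the fibroblast marker *Pdgfrb* in Basal1 of WT3, 14 of 14 of *Lum* and 181 of 356 of *Dcn*. The 8 fibroblast markers summed to 305.4 CPM in Basal1 of WT3 and to 1.84 to 15.1 CPM in the other mice. The 5 other than the collagens summed to 31.4 CPM in WT3, or 11.9 CPM without the collagen-rich cells, and to 1.84 to 15.1 CPM in the other mice. The collagen-rich cells held 49.2% of the *Timp3* UMIs of WT3 in Basal1, 9.83% of *Inhba*, 3.67% of *Mmp13* and 0 of 5325 *Mmp12* UMIs.

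*Inhba*, the ligand of the group, encodes the chain that pairs to form activin A. Its levels in Basal1 were 233, 54.6 and 241 CPM in WT1, WT2 and WT3 and 172, 182 and 98.9 CPM in MT1301, MT1306 and MT1383 (164 ± 73.9, n = 6). WT2 was lowest, as it was for *Fn1*, and the genotypes overlapped. Basal4 was next at 33.9 CPM, and this value came from MT1383, where 1 cell held 73 of the 74 UMIs of its 29 Basal4 cells. A UMI was found in 43.3% of Basal1 cells and in 32.7% after thinning, against 8.03% and 3.57% in Multiciliated3.

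**Figure D3:**
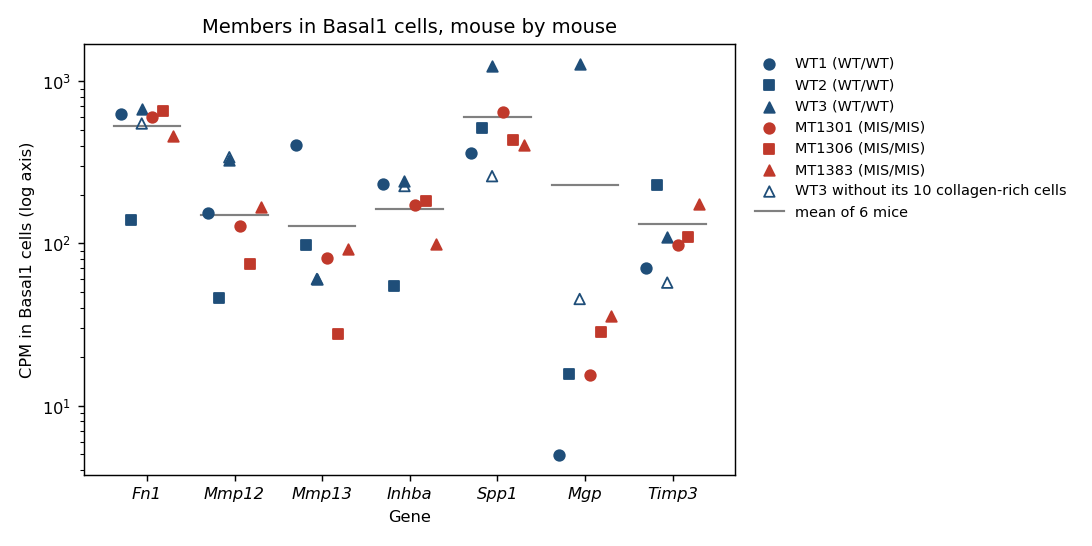
CPM of the members in Basal1 cells of each mouse, on a log scale, with and without the 10 collagen-rich cells of WT3. Removing those cells lowers *Mgp* in WT3 from 1283 to 45.4 CPM and *Spp1* from 1240 to 259 CPM, and leaves *Mmp12* near its value.

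*Fn1*, *Mmp12*, *Mmp13*, *Inhba* and *Spp1* shared not only a cluster but cells within it. Among 2304 Basal1 cells thinned to the same depth, *Fn1* was detected in 87.9% of the cells with *Mmp12* and in 36.2% of those without, and the share was higher with *Mmp12* in 6 of 6 mice. *Inhba* was detected in 65.7% against 23.2% and *Mmp13* in 48.2% against 15.3% of the same cells, both in 6 of 6 mice. *Spp1* was detected in 49.3% against 27.2%, in 5 of 6 mice. The ligand *Inhba* and the matrix gene *Fn1* overlapped most, with *Fn1* in 81.7% of cells with *Inhba* and in 26.9% of the others. *Timp3* went the other way, being detected in 22.5% of cells with *Mmp12* and in 33.1% of the others, with a higher share beside *Mmp12* in only 1 of 6 mice. All these genes share library and cluster, and the members were picked for their levels there, so these shares are a description.

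Basal1 cells differed in how many of these 5 genes were detected. Whether they form a separate subset was not tested. After removal of the collagen-rich cells, 40.7% of 2294 cells had none of the 5 genes at this depth, 23.2% had at least 3 and 1.96% had all 5. The share with at least 3 was 42.9%, 17.1% and 20.9% in WT1, WT2 and WT3 and 27.9%, 26.1% and 23.0% in MT1301, MT1306 and MT1383. WT1 was above and WT2 and WT3 below all *MIS/MIS* mice.

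**Figure D4:**
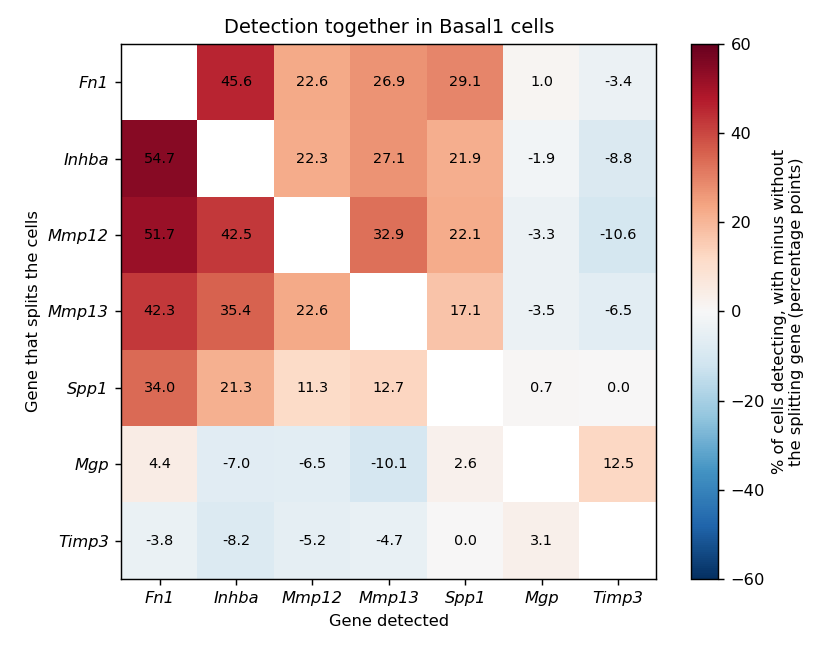
Difference, in percentage points, between the share of Basal1 cells with the gene of the column among cells with and without the gene of the row, at 10000 UMIs per cell. *Fn1*, *Inhba*, *Mmp12*, *Mmp13* and *Spp1* form a block of positive differences, with 54.7 points for *Fn1* by *Inhba* and 51.7 for *Fn1* by *Mmp12*, while *Timp3* lies at or below 0 beside *Mmp12* and *Inhba*.

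Genotypes were compared over mice, on UMIs summed per mouse and class, with limma's voom test over all genes, adjusted by the Benjamini-Hochberg method. The threshold was an adjusted p of 0.05, and the test called 0 of 14615 genes in basal cells (0%), 1 of 13610 in secretory cells (0.00735%), 1 of 14206 in multiciliated cells (0.00704%), 0 of 12691 in Basal1 (0%), 1 of 11161 in Basal2 (0.00896%) and 0 of 9947 in Basal7 (0%, 3 *WT/WT* against 2 *MIS/MIS* mice). In basal cells, Basal1 and Basal7 the unadjusted p was under 0.05 for 334, 598 and 108 genes, and limma-trend also called 0. The gene called in the other classes was *Wdfy1*, which is not a member. Of the 48 pairs of member and class, 33 had enough counts to be tested and 0 were called, with adjusted p from 0.63 to 1.00 in limma's voom test. The unadjusted p was under 0.05 in 2 of the 33 pairs, which were also the 2 in which the genotypes did not overlap. They lay in Basal2 and multiciliated cells, where 567 of 11161 and 614 of 14206 genes had an unadjusted p under 0.05. In secretory cells 258 of 13610 genes did. For comparison, genes without overlap made up 7.03% in basal, 6.02% in secretory and 9.61% in multiciliated cells, and 10.5% in Basal1, 9.52% in Basal2 and 11.7% in Basal7.

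The first of these pairs was *Timp3* in Basal2. It was at 271, 231 and 222 CPM in WT1, WT2 and WT3 and at 369, 334 and 336 CPM in MT1301, MT1306 and MT1383. Every *MIS/MIS* mouse was above every *WT/WT* mouse, by a log2 fold change of 0.50 ± 0.088 (SE, 95% interval 0.30 to 0.70, adjusted p = 0.63 in limma's voom test). Left-out mice moved it between 0.45 and 0.58. The genotypes overlapped in the depth of these cells (median 19763 to 30839 UMIs in *WT/WT* and 16963 to 30304 in *MIS/MIS* mice). They also overlapped in the summed fibroblast markers (31.9 to 83.0 against 29.9 to 102 CPM). That sum came mainly from *Dcn*, at 55.3 CPM in Basal2 and highest in Basal3 at 59.0 CPM. The part of depth or of these markers in the *Timp3* difference was not tested. In Basal6 the values were 127, 109.7 and 111 against 161, 136 and 274 CPM, without overlap and not tested, where 9.84% of all genes did not overlap. In Basal3 (233, 114 and 134 against 227, 169 and 274 CPM), in Secretory1 (159, 111 and 112 against 185, 204 and 94.8 CPM) and in Basal1 and Basal7 (above) the genotypes overlapped.

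The second pair was *Fn1* in multiciliated cells, at 0.805 to 1.04 CPM in *WT/WT* and 1.29 to 3.87 CPM in *MIS/MIS* mice. The log2 fold change was 1.56 ± 0.52 (SE, 95% interval 0.35 to 2.77, adjusted p = 0.90 in limma's voom test). Both levels are small beside those of Basal1.

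For the members centred on Basal1, the intervals were wide. In Basal1 the log2 fold change of *MIS/MIS* over *WT/WT* was 0.40 ± 0.54 (SE) for *Fn1*, -0.27 ± 0.65 for *Mmp12*, -1.23 ± 0.75 for *Mmp13* and -0.08 ± 0.54 for *Inhba*, with adjusted p of at least 0.95 in limma's voom test. For *Mmp13* the 95% interval ran from -2.98 to 0.52, and the value was -0.45 without WT1, the high mouse, -0.68 without MT1306 and -1.91 without WT3. The estimates for *Spp1* and *Mgp* turned with the collagen-rich cells of WT3, from -0.37 to 0.31 and from -1.29 to 0.28 without them. *Timp3* in Basal1 turned likewise, from -0.09 to 0.22.

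Over all basal cells, *Mmp13* was at 34.3, 34.7 and 19.8 CPM in WT1, WT2 and WT3 and at 17.6, 5.78 and 21.3 CPM in MT1301, MT1306 and MT1383. The mice WT3 and MT1383 overlapped, and the log2 fold change was -1.13 ± 0.49 (SE, 95% interval -2.30 to 0.03, adjusted p = 1.00 in limma's voom test), or -0.62 without MT1306. *Timp3* was at 48.0, 184 and 145 CPM and at 190, 158 and 213 CPM in the same order, a log2 fold change of 0.72 ± 0.45 that was 0.17 without WT1 and 1.10 without WT2. *Fn1* was at 53.8, 50.7 and 213 CPM and at 130, 139 and 106 CPM (0.52 ± 0.52, with 0.16 without WT2 and 1.17 without WT3). In such sums, fewer cells of a cluster and less RNA per cell cannot be told apart. Basal1 made up 7.42%, 33.3% and 30.4% of the basal cells of the *WT/WT* mice and 20.1%, 20.02% and 17.5% of those of the *MIS/MIS* mice, and 1048 of the 1834 basal cells of WT1 were Basal4. With equal numbers of Basal1, Basal2, Basal3 and Basal6 cells from each mouse the log2 fold changes were -1.48 for *Mmp13*, 0.40 for *Timp3* and 0.67 for *Fn1*. None of the 3 was called there either (adjusted p = 1.00 in limma's voom test).

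In Basal7 the fold change of *Mmp7* was 1.43 ± 1.58 (log2, SE, 3 against 2 mice), and without a mouse it ranged from -0.06 to 3.23. That of *Timp3* there was 0.38 ± 0.55. In secretory cells *Timp3* was at 89.8 to 120 CPM in *WT/WT* and at 90.8 to 140.1 CPM in *MIS/MIS* mice, a log2 fold change of 0.20 ± 0.16.

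A model over all 3 classes, with each mouse as a block, tested whether the genotype effect differed between classes. Of 15114 genes, 0 passed in limma's voom test for secretory against basal and 0 for multiciliated against basal cells (534 and 672 at an unadjusted p under 0.05). *Mgp* had the largest such differences among the members, 3.11 (adjusted p = 1.00) and 3.33 (adjusted p = 0.98) on the log2 scale. Without the collagen-rich cells of WT3 they were 0.26 and 0.18.

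**Figure D5:**
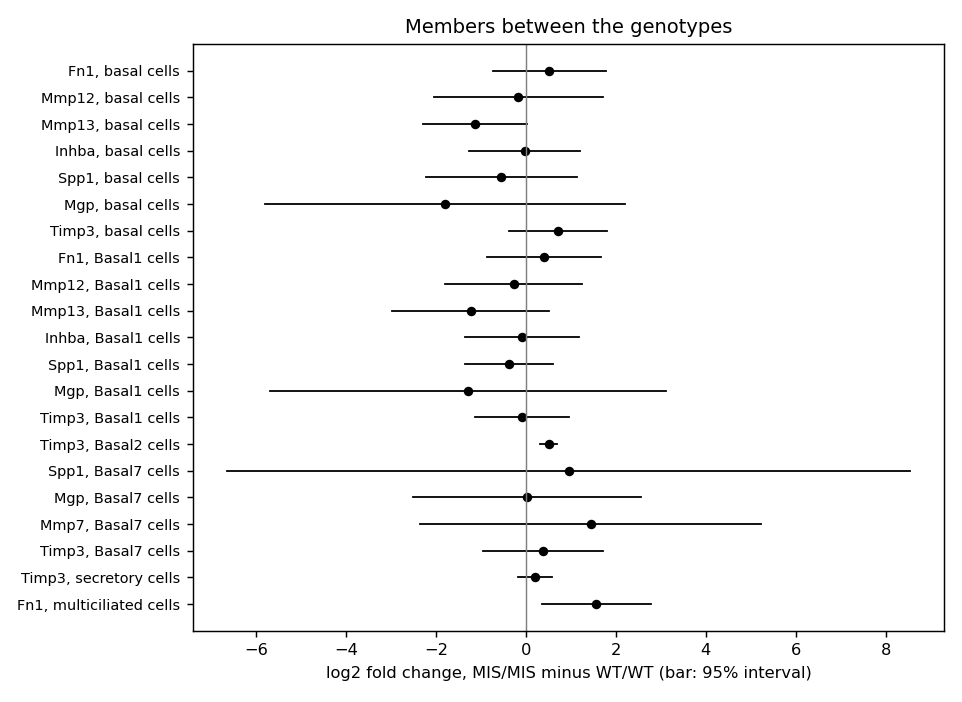
Log2 fold change of *MIS/MIS* over *WT/WT* mice for the 21 pairs of member and class with a mean of at least 20 CPM or no overlap, where points are estimates and bars 95% intervals from limma's voom test. Only *Timp3* in Basal2 (0.50) and *Fn1* in multiciliated cells (1.56) have intervals that leave out 0, and neither passed the adjustment over all genes.

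The genes of the same pathways were read from the same fits, by lists drawn up with earlier results of these data known, and 0 genes of these lists were called in any class. Of 23 metalloproteinases, 11 could be tested in basal cells, with a median log2 fold change of -0.17 against -0.01 over all genes. That median was -0.69 without WT1, 0.20 without WT3 and, over 7 genes, 0.12 at equal cluster makeup. Unlike the secreted *Mmp12* and *Mmp13*, *Mmp14* and *Mmp15* are anchored in the membrane. *Mmp15* was at 80.8 CPM over all basal cells and 96.9 in Basal1, and *Mmp14* at 61.1 and 76.8 CPM, so neither was concentrated in Basal1 as those members were. Of the neighbours of *Mmp12* on chromosome 9, *Mmp10* was also highest in Basal1, at 11.1 CPM. Among 5 inhibitors, 4 were tested, and *Timp2* was at 288 CPM in basal cells. *Timp1* had its highest cluster in Basal1 (62.9 CPM) and *Timp4* in Multiciliated3 (59.4 CPM).

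All 7 genes of the plasminogen system, which activates several metalloproteinases, were tested in basal cells. The urokinase receptor *Plaur* was at 149 CPM and the serpin *Serpinb5* at 145 CPM. Among 13 ADAM and ADAMTS proteases, of which 10 were tested, *Adam28* was at 168 CPM and the sheddases *Adam10* and *Adam17* at 73.0 and 26.5 CPM. Of 27 activin and TGF-beta genes, 26 were tested, among them the ligand *Tgfb2* at 136 CPM, the co-repressor *Skil* at 102 CPM and the receptor *Tgfbr2* at 86.3 CPM. The inhibitory *Smad7* was at 67.2 CPM in basal cells and at 142 CPM in Basal1, the cluster of *Inhba*. Basal1 was also higher in *Skil* (144 CPM) and *Adam10* (79.5), and close to the basal level in *Adam17* (26.7) and *Tgfbr2* (86.0). It was lower in *Tgfb2* (64.0 CPM), *Adam28* (79.9), *Plaur* (134) and *Serpinb5* (130).

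The receptors of fibronectin and osteopontin were also read. Of 17 matrix receptors, all tested, the syndecans *Sdc4* and *Sdc1* were at 449 and 240 CPM in basal cells, and the integrin chain *Itgb1* was at 250 CPM there and at 414 CPM in Basal1. Of 27 matrix genes, 22 were tested. *Ccn2* (connective tissue growth factor) was at 168 CPM in basal cells and at 362 CPM in Basal1, and *Ccn1* at 177 CPM in basal cells with its highest level in Basal2. Of 16 wound keratins and growth factors 15 were tested, with a median log2 fold change of -0.41 against -0.01 over all genes, and 1 of the 15 had a positive value, against 48.0% of all genes. No test was run on the list. Without WT3 its median was -0.18 and without MT1383 -0.19, each with 7 positive values, without WT1 it was -0.89, and at equal cluster makeup 2 of 12 were positive. Several of its genes were highest in Basal4, the cluster that made up 57.1% of the basal cells of WT1, among them *Krt6a* at 1470 CPM, and the part of that makeup in these values beyond the fit at equal makeup was not tested. *Krt17* was at 584 CPM in basal cells and at 1217 CPM in Basal1. *Hbegf*, an EGF receptor ligand, was at 386 CPM in basal cells and lower in Basal1, at 285 CPM.

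Likeness of pattern was measured by the Pearson correlation of log2(CPM + 1) over the 15 clusters with at least 50 cells, among 9483 genes. The points share libraries and depth, so no p is given. *Fn1* was most like *Fxyd5* (r = 0.980), followed by *Ctsw* (0.962) and *Cdh6* (0.942). *Mmp13* was most like the chemokine *Ccl5* (0.951) and the cytokine *Csf2* (0.942), *Inhba* most like *Aldh1a3* (0.928), and *Timp3* most like *Gm12840* (0.917) and *Fbln5* (0.904). For *Mmp12* the highest values were with *Col1a1* (0.988), *Ccl11* (0.988) and *Ctsw* (0.977), although the collagen-rich cells that carried *Col1a1* had no *Mmp12* UMI. For *Mmp7* the highest was *Spink8* (0.986), although *Spink8* was at 452 CPM in Basal7 of WT1, the mouse with the least *Mmp7* there. In both cases the likeness over clusters did not extend to the same cells or mice. *Spp1* was most like *Spin1* (0.904) and *Lgals1* (0.901), and *Mgp* most like *Scx* (0.903) and *Lgals1* (0.902). Likeness was measured with the collagen-rich cells kept and not without them. In Basal1 of WT3 these cells held 96.6% of the *Mgp* and 79.8% of the *Spp1* UMIs.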

How the data were processed

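The authors aligned and counted the reads with Cell Ranger (7.1.0, mm10 in the submitters' processing notes), filtered and clustered the cells in Seurat and named the clusters by hand. They deposited the raw UMI count of each gene in each cell, and a second table with the cluster of each cell. All values were whole, and the totals of all 23871 cells equalled those in the cell table. A mistyped separator prevented the table from being registered as counts, so limma (3.58.1, R 4.3.3) with voom weights on sums per mouse replaced the planned negative binomial test. Genes needed a count of about 10 in a library of median size and a total of 15. Normalization was TMM, and adjusted p-values are Benjamini-Hochberg over all genes tested, with a threshold of 0.05. A mouse entered a class with at least 20 cells. This procedure was also run on simulated counts. Their spread between mice was set in advance and not estimated from these mice. That run therefore does not show which changes of the members could be called. Python 3.11.15 with pandas 2.3.3 was used for levels and shares.

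The 8 members and the gene lists were chosen with earlier results of these data known. All members are named, and of each further list up to 4 genes with the highest mean CPM in basal cells, genes named for their level in Basal1 or another cluster having been picked after their values were seen. For likeness the 3 genes of highest correlation were taken among genes with at least 20 CPM in a cluster. The markers of basal, fibroblast and leukocyte cells, *Cd74* and *Spink8* were read as checks, the last after its value was seen. Alternatives were leaving out each mouse, scaling by the upper quartile, keeping genes of low count, the stated cell filters, equal cluster makeup and cells thinned to 5000 UMIs. limma-trend and fits without the collagen-rich cells or without the highest *Spp1* cell of each mouse were added after the data were seen, as were the gene lists and Basal7 means without each mouse.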

Additional observations from a re-analysis of the deposited data

How the results depend on the processing

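No member was called under any alternative, with adjusted p from limma between 0.33 and 1.00. Of 199 alternative values for 21 fold changes, 34 had the opposite sign, 24 of them on leaving out a mouse. In basal cells *Inhba* turned to 0.011 without the collagen-rich cells and 0.048 under the stated cell filters, *Spp1* to 0.21 without the collagen-rich cells and 0.47 at equal cluster makeup, and *Mgp* to 0.51 at equal makeup. In Basal1, *Timp3*, *Spp1* and *Mgp* turned to 0.22, 0.31 and 0.28 without the collagen-rich cells. In Basal7, *Spp1* and *Mgp* turned to -1.80 and -0.017 with limma-trend. The cause was not tested.

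Leaving out each mouse gave ranges of log2 fold changes that crossed 0. In Basal1 they were -0.25 to 0.80 for *Fn1*, -0.76 to 0.28 for *Inhba*, -2.61 to 1.02 for *Mgp*, -0.997 to 0.41 for *Mmp12*, -0.83 to 0.088 for *Spp1* and -0.46 to 0.40 for *Timp3*. In basal cells they were -0.37 to 0.57 for *Inhba*, -2.83 to 0.0080 for *Mgp*, -0.69 to 0.75 for *Mmp12* and -1.35 to 0.13 for *Spp1*. In Basal7 they were -1.01 to 0.86 for *Mgp*, -0.061 to 3.23 for *Mmp7*, -4.48 to 1.99 for *Spp1* (4 fits, since without WT1 it had too few counts to be tested) and -0.20 to 0.77 for *Timp3*. *Timp3* in Basal2 and in secretory cells, *Mmp13* in Basal1, *Fn1* in multiciliated cells, and *Timp3*, *Mmp13* and *Fn1* in basal cells kept their sign.

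Counts of genes called moved by at most a few. Basal cells gave 1 at equal cluster makeup in place of 0. Secretory cells gave 0 with upper-quartile normalization and 0 to 0 without a mouse, in place of 1. Basal1 gave 0 to 1 without a mouse (1 without WT2), and the difference of the genotype effect between secretory and basal cells 0 to 3 (3 without WT2). The highest cluster's CPM and shares kept their values within the spread under pooling and thinning. No paired analysis was possible because the *MIS/MIS* libraries carry numbers of animals that are in no title, so no number is shared between genotypes. The DESeq2 alternative was not run, since the table could not be registered as counts. With 3 mice a genotype, the width of the intervals limits what could be called.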
